A study of Rattus norvegicus with 23 samples.

Results

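The genes described here encode integrins, the receptors with which cells hold on to the matrix, and the adaptor proteins that sit on their cytoplasmic tails in focal adhesions. The set takes 26 integrin subunits and 23 adaptors by name, 49 genes of the 30452 in the count table of the rat cells. Of these, 39 had enough counts to be tested, 17 integrin subunits and 22 adaptors, out of 14777 genes tested in all. The cells were NRK-52E, an epithelial line of rat kidney that the labels call NRKE, and NRK-49F, a fibroblast line of rat kidney that the labels call NRKF. Both lines carry no engineered allele in the labels, were kept without serum for 24 h and were then incubated for 48 h at pH 7.4 (control) or at pH 6.0, set with HCl. RNA was sequenced from n = 6 samples of NRK-52E at each pH, from n = 6 of NRK-49F at pH 7.4 and from n = 5 of NRK-49F at pH 6.0. A label named sample group, 1 and 3 for NRK-52E and 4 and 6 for NRK-49F, splits each line, and each sample group holds samples of both pH values. The labels do not say what a sample group is, nor that samples are separate cultures, so p-values measure only the spread between these samples.

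Integrins are pairs of an alpha and a beta chain, and the pair decides which matrix protein is bound, such as laminin, collagen or the RGD motif of fibronectin and vitronectin. Talins and kindlins bind the beta tail and switch the receptor on, the complex of ILK, PINCH and parvin and the actin linkers tie it to the cytoskeleton, and FAK, Src, paxillin and p130Cas pass the signal on. In the kidney tubule, laminin receptors anchor epithelial cells to their basement membrane, and in fibroblasts collagen and fibronectin receptors hold the cells in the interstitial matrix.

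Total counts per sample ranged from 16412564 to 34250535. Levels are given as FPM, fragments per 1000000 counted fragments after TMM scaling, which can be compared between samples for a gene but not between genes, since no gene lengths were used. The labelled cell types were checked against marker genes. Of 10 epithelial markers in the table, only Krt8 passed the filter on low counts, with means of 499 FPM in NRK-52E and 839 FPM in NRK-49F at pH 7.4, and the defining markers Cdh1, Epcam, Krt18 and Grhl2 were at or near 0 in both lines. Fibroblast markers such as Pdgfra separated the lines, with 306 FPM in NRK-49F against 1.83 FPM in NRK-52E at pH 7.4, while Col3a1 was higher in NRK-52E. The summed level of 12 fibroblast markers ranged from 4980 to 8157 FPM in NRK-52E at pH 7.4 and from 1841 to 3119 FPM at pH 6.0. Nearly all of this sum was Col3a1, so it says little about the other markers. The part of these markers in the results was not tested. In bulk RNA, fewer cells of a type and less RNA per cell cannot be told apart. In 1 sample of NRK-52E at pH 7.4, A021, several genes of NRK-49F, such as Pdgfra, Vcam1 and Lum, stood highest. Pdgfra was there at 1.54% of its NRK-49F level, against 0.222 to 0.72% in the other 5. Some genes of NRK-49F also stood high in A022 and A033. Col1a2 had 52.8 FPM in A021, 15.4 FPM in A022 and 10.9 FPM in A033, against 0.415 to 0.654 FPM in the remaining controls. Spp1 had 25.8, 9.57 and 19.2 FPM in these samples, against 0.792 to 1.96 FPM.

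At pH 6.0, most adhesion genes of NRK-52E fell. Of the 39 tested, 22 were lower and 7 higher at an adjusted p under 0.05 by edgeR's quasi-likelihood test, which is 74.4% of them. Over all genes 61.2% passed the same test in this line, 24.7% as higher and 36.6% as lower, so a high share of calls was not particular to these genes. The median log2 fold change was -0.91 for the 17 integrin subunits and -0.28 for the 22 adaptors, against -0.12 for all genes. The integrin median includes fitted falls of Itga2, Itgb3 and Itga11, which in NRK-52E lay under the level of 3 counts at pH 6.0. Itgb3 and Itga11 were also among the 22 called lower. Samples of both pH values did not overlap for 18 of the 39, 14 lower and 4 higher, where 38.6% of all genes did not overlap.

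In NRK-49F more integrins rose than fell, while the adaptors mostly fell. Of the 17 integrin subunits, 7 rose and 2 fell, while of the 22 adaptors 1 rose and 13 fell. Without the acid sample A054 the members called higher numbered 5 and not 8, since Itga2, Itga6 and Itgax lost their calls. Together 23 of 39 were called, 59%, beside a background of 28.9% over all genes, of which 14.5% were higher and 14.4% lower. The median log2 fold change was 0.10 for integrins and -0.38 for adaptors, with 0.00 for all genes. Samples did not overlap for 17 members, 6 higher and 11 lower, where the share over all genes was 20.6%, and 16 of these 17 were also called.

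Set side by side, 11 members fell in both lines, namely Itga11, Itgb4, Tln2, Fermt2, Parva, Ptk2b, Src, Bcar1, Crkl, Zyx and Tns3. Another 3, Itga5, Itga2b and Itgax, rose in both lines. For Itgax the call was lost within sample group 3 of NRK-52E, and in NRK-49F it stood at the threshold (edgeR adjusted p = 0.049). Opposite calls were found for 3 genes, since Itga6 fell in NRK-52E and rose in NRK-49F, and Ilk and Vcl rose in NRK-52E and fell in NRK-49F. Itgav, Crk, Actn1 and Tns1 were called in neither line, although with sample group as a block Itgav was called lower in NRK-52E and Tns1 in NRK-49F.

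**Figure D1:**
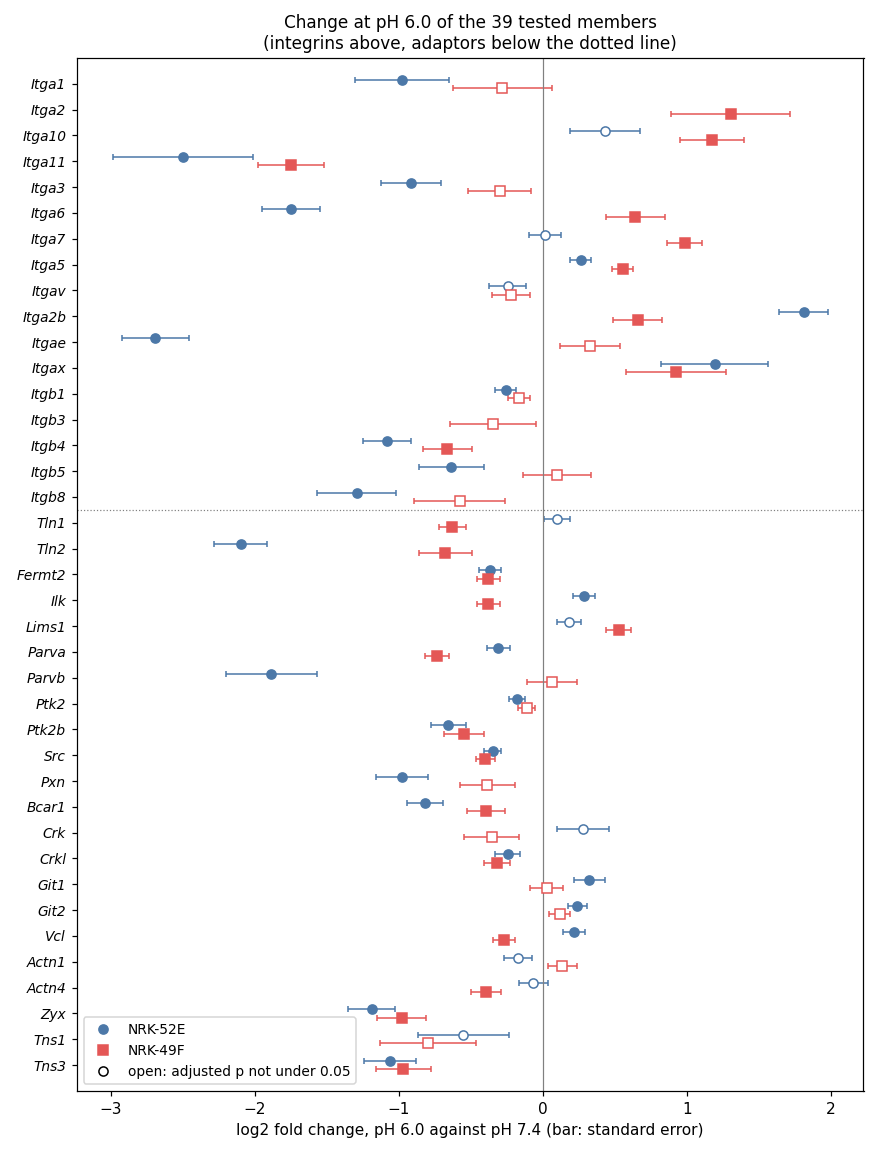
Log2 fold change of each tested member from pH 7.4 to pH 6.0 (horizontal axis) in NRK-52E (circles) and NRK-49F (squares), with the standard error as a bar and filled symbols for an adjusted p under 0.05. Itga2 and Itgb3 have no NRK-52E point because their level there was under that of 3 counts, and Itga11 is drawn although its NRK-52E mean at pH 6.0 was under it too. Most circles lie left of 0, while the squares of the integrins lie on both sides and those of the adaptors mostly on the left, with Lims1 as the adaptor that rose.

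For 36 of the 49 members the RefSeq table of the rat build GRCr8 holds the promoter, and 4 are shown here for members whose changes the text returns to, Zyx as a fall in both lines, Vcl as an opposite change, Itgb1 as the beta chain with the most partners and Itga5 as a rise in both lines. Each is the 250 bases before the gene start, 5′ to 3′ on the strand of the gene, with any match to the TEAD motif GGAATG on either strand in capitals, which the Itga5 promoter lacks. Zyx lies at chr4:72203750-72203999 on the plus strand, Vcl at chr15:3404801-3405050 on the minus strand, Itgb1 at chr19:73602027-73602276 on the plus strand and Itga5 at chr7:136381306-136381555 on the minus strand.
Zyx: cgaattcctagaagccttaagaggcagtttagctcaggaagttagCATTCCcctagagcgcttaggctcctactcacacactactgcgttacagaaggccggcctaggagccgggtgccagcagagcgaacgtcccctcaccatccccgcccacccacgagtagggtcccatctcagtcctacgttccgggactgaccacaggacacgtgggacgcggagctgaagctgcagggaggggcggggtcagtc
Vcl: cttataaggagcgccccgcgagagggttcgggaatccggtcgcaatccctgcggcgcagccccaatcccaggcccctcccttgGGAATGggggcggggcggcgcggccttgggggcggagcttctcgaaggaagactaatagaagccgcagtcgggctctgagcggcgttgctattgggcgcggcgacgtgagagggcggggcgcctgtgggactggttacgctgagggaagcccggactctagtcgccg
Itgb1: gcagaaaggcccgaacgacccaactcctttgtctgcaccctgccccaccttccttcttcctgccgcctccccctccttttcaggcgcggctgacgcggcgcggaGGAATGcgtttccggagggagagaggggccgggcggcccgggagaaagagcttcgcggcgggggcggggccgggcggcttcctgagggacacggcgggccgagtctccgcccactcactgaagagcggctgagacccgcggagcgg
Itga5: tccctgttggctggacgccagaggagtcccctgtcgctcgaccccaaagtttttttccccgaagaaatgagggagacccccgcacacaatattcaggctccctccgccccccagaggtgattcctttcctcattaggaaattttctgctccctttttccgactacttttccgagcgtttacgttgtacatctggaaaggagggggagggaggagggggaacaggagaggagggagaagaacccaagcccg
The TEAD motif stood in 6 of the 36 member promoters (16.7%) and in 11.8% of all 27457 promoters of this length. Its 6 holders were Itga10, Zyx, Itgb8, Itga3, Vcl and Itgb1, which did not change in 1 direction. The CArG box, the letters bound by serum response factor, stood in 1 of 36 (Itgb6) and in 1.5% of all promoters, and the AP-1 motif TGANTCA in 1 of 36 (Itgax) and in 6.36% of all, on either strand. Such matches describe letters in this window only.

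Among the laminin receptors, the chains that anchor epithelial cells fell in NRK-52E. Itga6 pairs with Itgb4 in hemidesmosomes and with Itgb1 elsewhere. Its level ranged from 51.7 to 78.7 FPM (median 64.2) at pH 7.4 and from 12.8 to 28.6 FPM (median 19.0) at pH 6.0 in NRK-52E, with no overlap and a log2 fold change of -1.75 ± 0.20 (SE, edgeR adjusted p = 7.58e-08). Its NRK-49F samples ranged from 35.4 to 61.2 FPM (median 50.1) at pH 7.4 and stood at 52.01, 75.6, 90.2, 81.8 and 90.0 FPM in the samples at pH 6.0, a rise of 0.64 ± 0.20 (adjusted p = 0.0184) that was not called within sample group 4 alone (adjusted p = 0.0712) or without A054. The lowest acid sample of NRK-49F lay within the range of the controls. Both changes differed by -2.39 ± 0.28 on the log2 scale (adjusted p = 4.5e-07), and while the lines were not called different in Itga6 at pH 7.4 (adjusted p = 0.0773), they were at pH 6.0, with 77.9 FPM in NRK-49F against 19.5 FPM in NRK-52E on average (adjusted p = 5.04e-09).

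Itgb4, the only beta chain of the hemidesmosome, fell in both lines. In NRK-52E it ranged from 38.9 to 48.2 FPM (median 44.2) at pH 7.4 and from 12.7 to 28.9 FPM (median 20.3) at pH 6.0, a log2 fold change of -1.08 ± 0.17 (edgeR adjusted p = 5.09e-06). In NRK-49F the range was 59.2 to 74.8 FPM (median 62.5) at pH 7.4, and the acid samples had 32.1, 41.3, 38.9, 45.5 and 47.0 FPM, a change of -0.66 ± 0.17 (adjusted p = 0.00525). No acid sample reached the lowest control sample in either line, so in NRK-49F Itgb4 fell while Itga6, its partner, rose.

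Itga3, a laminin receptor chain of kidney epithelia, fell in NRK-52E. It ranged from 393 to 577 FPM (median 465) at pH 7.4 and from 148 to 373 FPM (median 247) at pH 6.0, with a log2 fold change of -0.91 ± 0.21 (edgeR adjusted p = 0.000589). In NRK-49F the change was -0.30 ± 0.22 and not called (adjusted p = 0.336), and the difference between both changes was not called either (adjusted p = 0.105), but it was with sample group as a block (adjusted p = 0.00235). Itga7, a laminin receptor chain known from muscle, rose in NRK-49F. It lay between 44.7 and 63.2 FPM in all NRK-52E samples of both pH values, with a change of 0.01 ± 0.11 (adjusted p = 0.928). In NRK-49F it ranged from 11.2 to 16.4 FPM (median 15.4) at pH 7.4 and reached 25.2, 31.5, 27.2, 26.05 and 33.5 FPM at pH 6.0, a rise of 0.99 ± 0.12 (adjusted p = 1.15e-06). The changes of Itga7 differed between the lines by -0.97 ± 0.16 (adjusted p = 4.94e-05).

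Of the collagen receptor chains, Itga2, Itga10 and Itga11 were higher in NRK-49F, and they changed in both directions there. Itga11, a receptor chain for fibrillar collagen typical of fibroblasts, ranged from 57.0 to 106 FPM (median 83.8) at pH 7.4 in NRK-49F. At pH 6.0 its samples had 18.1, 29.9, 21.1, 23.5 and 29.8 FPM, all under the lowest control, with a log2 fold change of -1.75 ± 0.23 (edgeR adjusted p = 3.24e-06). Itga10, another collagen receptor chain, known from cartilage, ranged from 17.4 to 25.1 FPM (median 20.7) at pH 7.4 and had 36.3, 50.7, 47.9, 48.9 and 56.8 FPM at pH 6.0, a rise of 1.17 ± 0.22 (adjusted p = 0.000309). The acid samples of Itga10 all lay above the controls. In NRK-52E, Itga10 had means of 3.29 ± 0.771 and 4.45 ± 2.2 FPM (SD, n = 6 each) and was not called.

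Itga2, which binds collagen on many epithelia, was low in NRK-49F and under 3 counts in every NRK-52E sample. In NRK-49F it ranged from 0.541 to 1.96 FPM (median 1.08) at pH 7.4 and had 0.866, 3.53, 3.89, 1.73 and 5.00 FPM at pH 6.0, a log2 fold change of 1.31 ± 0.41 (edgeR adjusted p = 0.0197) with overlapping samples. The call was lost without the acid sample A056 (1.05, adjusted p = 0.0745) and without A054, and also within sample group 4 alone. Against the level of 3 counts per library, Itga2 was at least 8.75-fold higher in NRK-49F than in NRK-52E at pH 7.4 and at least 20.5-fold higher at pH 6.0. Itga1, a collagen receptor chain of stromal cells, had a log2 fold change of -0.98 ± 0.33 in NRK-52E (adjusted p = 0.0124), with means of 10.1 ± 6.43 and 5.18 ± 1.52 FPM. This call rested on A021, which stood at 22.9 FPM or 320.2% of the mean of NRK-49F, and without it the change was -0.55 (adjusted p = 0.0957). In NRK-49F Itga1 was not called, with means of 7.16 and 5.93 FPM. Pelo, a gene that lies inside Itga1, went the other way in NRK-52E, from 79.6 to 166 FPM, and with no stated strand setting, reads of both cannot be told apart where they overlap.

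Itga11 and Parvb in NRK-52E are given with the signal of NRK-49F genes beside them. Itga11 had means of 0.765 and 0.145 FPM at pH 7.4 and 6.0 and was called lower (edgeR adjusted p = 0.000108), with no fold given because the mean at pH 6.0 lies under the level of 3 counts. Its level at pH 7.4 was 1.53% of that of NRK-49F in A021 and 0.138 to 1.38% in the other samples, and at most 0.466% at pH 6.0. Pdgfra, which is not a member, was at most 0.0342% of its NRK-49F level at pH 6.0 and between 0.222 and 1.54% at pH 7.4. Both genes were thus lower at pH 6.0. The control samples other than A023 stood in the same order for both genes. They went from A021, with Itga11 at 1.26 FPM and Pdgfra at 4.73 FPM, down to A035, with 0.113 and 0.849 FPM. The control A023 was out of this order, with Itga11 at 1.13 FPM and Pdgfra at 0.679 FPM. The part of NRK-49F signal in the Itga11 level of NRK-52E was not tested. Without A021 Itga11 was still called lower (adjusted p = 0.000575), but no fit left out A021, A022 and A033 together.

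Among the chains that read the RGD motif, Itga5, the fibronectin receptor chain, rose in both lines with little spread. In NRK-52E it ranged from 35.02 to 42.9 FPM (median 39.7) at pH 7.4 and from 43.6 to 51.8 FPM (median 47.5) at pH 6.0, a log2 fold change of 0.26 ± 0.07 (edgeR adjusted p = 0.00292). In NRK-49F the range was 146 to 169 FPM (median 153) at pH 7.4, and the acid samples had 238, 253, 200, 216 and 233 FPM, a change of 0.55 ± 0.07 (adjusted p = 4.03e-06). No samples overlapped in either line. The rise was larger in NRK-49F, by 0.29 on the log2 scale (NRK-52E minus NRK-49F -0.29 ± 0.10, adjusted p = 0.0281), a call that was lost with RLE scaling, without the filter and when A036, A038 or A043 was left out. Itgb1, the partner of Itga5 and of most alpha chains, fell in NRK-52E. It ranged from 965 to 1138 FPM (median 1082) at pH 7.4 and from 822 to 964 FPM (median 896) at pH 6.0. Its change of -0.26 ± 0.07 (adjusted p = 0.00323) was lost when this line was fitted alone and within sample group 1. In NRK-49F Itgb1 had means of 637 ± 44.5 and 567 ± 43.4 FPM and was not called (-0.17 ± 0.08, adjusted p = 0.102).

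Itgav, the alpha chain of the vitronectin receptors, was among the members called in neither line. It had means of 120 ± 18.6 and 101 ± 17.4 FPM in NRK-52E and of 226 ± 31.4 and 194 ± 30.1 FPM in NRK-49F at pH 7.4 and 6.0, with log2 fold changes of -0.24 ± 0.13 and -0.22 ± 0.13 (edgeR adjusted p = 0.0999 and 0.23). With sample group as a block it was called lower in NRK-52E (adjusted p = 0.0411). Its beta partners separated the lines. Itgb5, of the vitronectin receptor, had 942 ± 70.9 FPM in NRK-49F against 127 ± 36.3 FPM in NRK-52E at pH 7.4, a difference of 2.89 ± 0.24 (adjusted p = 1.47e-10). In NRK-49F it was not called, with 1077, 906, 995, 1123 and 953 FPM at pH 6.0 around the range of the controls, 882 to 1063 FPM. In NRK-52E it ranged from 82.7 to 164 FPM (median 133) at pH 7.4 and from 42.1 to 124 FPM (median 81.2) at pH 6.0, a change of -0.63 ± 0.23 (adjusted p = 0.0192). The overlap of its samples in NRK-52E went with the sample groups, since sample group 1 fell from 160 to 116 FPM and sample group 3 from 95.3 to 47.9 FPM, with log2 fold changes of -0.46 ± 0.12 and -0.99 ± 0.12.

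Itgb8, the chain that with Itgav releases active TGF-beta, was the reverse of Itgb5 in where it was found. It ranged from 15.6 to 66.0 FPM (median 37.4) at pH 7.4 and from 12.7 to 18.7 FPM (median 16.5) at pH 6.0 in NRK-52E, a log2 fold change of -1.29 ± 0.27 (edgeR adjusted p = 0.000272). A single control sample, at 15.6 FPM, lay within the acid range. In NRK-49F it had 5.10 ± 1.68 FPM at pH 7.4 and 1.32, 3.53, 4.49, 2.74 and 5.05 FPM at pH 6.0, which was not called. Itgb3, of the vitronectin and platelet receptors, was found in NRK-49F, with 16.5 ± 4.23 FPM at pH 7.4 and 4.99, 18.5, 11.98, 11.6 and 18.2 FPM at pH 6.0, and was not called there (-0.34 ± 0.30, adjusted p = 0.431). In NRK-52E it had 0 to 5 counts per sample at pH 7.4 and 0 counts in every sample at pH 6.0. The test called it lower (adjusted p = 0.026), a call lost without the control sample A022 or A033 and within either sample group, and no fold is given because both levels lie under that of 3 counts. At pH 6.0 Itgb3 was at least 88.8-fold higher in NRK-49F. Itgb6, the epithelial partner of Itgav, was too low to be tested in both lines, with at most 3 counts in any NRK-52E sample.

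Itga2b, the alpha chain of the platelet fibrinogen receptor, rose in both lines. In NRK-52E it ranged from 2.77 to 4.47 FPM (median 3.46) at pH 7.4 and from 8.58 to 16.2 FPM (median 11.4) at pH 6.0, a log2 fold change of 1.81 ± 0.17 (edgeR adjusted p = 2.41e-09). In NRK-49F the range was 4.79 to 6.35 FPM (median 5.87), and the acid samples had 12.02, 8.41, 7.82, 8.48 and 8.77 FPM, a change of 0.66 ± 0.17 (adjusted p = 0.00472). All acid samples lay above all controls in both lines, and the rise was larger in NRK-52E by 1.15 ± 0.24 (adjusted p = 0.000423). Its partner, Itgb3, was under the level of 3 counts in NRK-52E. Of 4 platelet markers, Gp1ba moved with it, from 1.09 to 7.28 FPM in NRK-52E and from 0.44 to 1.62 FPM in NRK-49F. Gp9 was also called higher in NRK-52E, with 0 to 0.1885 FPM at pH 7.4 and 0.0493 to 0.849 FPM at pH 6.0. Pf4 and Ppbp were at or near 0 in every group. The summed level of the 4 ranged from 0.709 to 1.81 FPM at pH 7.4 and from 3.70 to 10.996 FPM at pH 6.0 in NRK-52E.

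Of the alpha chains known from leukocytes, only Itgax and Itgae passed the filter on low counts. Itgax, a chain of dendritic cells and macrophages, ranged from 1.74 to 5.50 FPM (median 3.95) at pH 7.4 and from 2.41 to 17.1 FPM (median 8.58) at pH 6.0 in NRK-52E, with a log2 fold change of 1.19 ± 0.37 (edgeR adjusted p = 0.00756). In NRK-49F it ranged from 26.7 to 39.5 FPM (median 34.7) and had 47.2, 61.2, 67.8, 68.8 and 70.8 FPM at pH 6.0, with no overlap and a change of 0.92 ± 0.35 (adjusted p = 0.049). That last call stood at the threshold and was lost when any of 10 of the 11 samples was left out. Its partner Itgb2 had at most 4 counts in any sample. Of 10 leukocyte markers, the defining Ptprc and Tyrobp were at or near 0 in both lines. In NRK-52E, 3 of the 5 that were tested rose at pH 6.0, Cd68, a lysosomal protein of macrophages, from 1.90 to 4.15 FPM, Lyz2, a lysozyme, from 1.65 to 4.01 FPM and Csf1r, a receptor of macrophages, from 0.871 to 2.09 FPM. The other 2 tested were not called over all samples, and within sample group 3 alone 1 of the 5 was called lower. In sample group 3, Coro1a ranged from 0.735 to 0.864 FPM at pH 7.4 and from 0.0524 to 0.165 FPM at pH 6.0. Cd3e in NRK-52E ranged from 0.377 to 0.735 FPM at pH 7.4 and from 0 to 0.265 FPM at pH 6.0. The summed level of the 10 in NRK-52E ranged from 5.14 to 7.64 FPM at pH 7.4 and from 8.66 to 13.5 FPM at pH 6.0, with no overlap. The part of such cells in the rise of Itgax was not tested. Cd68 also went from 29.9 to 229 FPM in NRK-49F. The summed level in NRK-49F was 23.2 to 34.8 FPM at pH 7.4 and 219 to 253 FPM at pH 6.0, nearly all of it Cd68.

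Itgae, the chain with which lymphocytes hold on to E-cadherin, had the largest fall in NRK-52E among the tested members above the level of 3 counts. It ranged from 4.59 to 6.22 FPM (median 5.38) at pH 7.4 and from 0.372 to 1.43 FPM (median 0.731) at pH 6.0, a log2 fold change of -2.69 ± 0.23 (edgeR adjusted p = 7.43e-10). In NRK-49F the means were 4.72 ± 1.05 and 5.93 ± 1.09 FPM, which was not called, and both changes differed by -3.02 ± 0.31 (adjusted p = 6.35e-08). Haspin, a mitotic kinase gene that lies inside Itgae, moved with it in NRK-52E, from 5.28 to 2.63 FPM, and rose from 5.28 to 8.36 FPM in NRK-49F, and reads of both cannot be told apart where they overlap. The partner of Itgae, Itgb7, had at most 17 counts in any sample and was not tested.

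The other members that did not pass the filter were Itga4, with 0 counts in all 23 samples, and Itga8, Itga9, Itgad, Itgal and Itgam, all with means under 0.4 FPM in every group. Fermt1, kindlin of epithelia and the only adaptor not tested, had means of 0.232 and 0.554 FPM in NRK-52E and was at most at 1 count in NRK-49F, so that it was at least 1.71-fold higher in NRK-52E at pH 7.4. Of 24 known pairs of an alpha and a beta chain, both chains had a mean over 1 FPM for 10 in NRK-52E and for 14 in NRK-49F, and the number was the same at both pH values. The pairs with both chains over this level in NRK-49F alone were those of Itga2 and Itga11 with Itgb1, Itgav with Itgb3 and Itga2b with Itgb3. These are RNA levels of single chains, and assembled receptors were not measured.

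**Figure D2:**
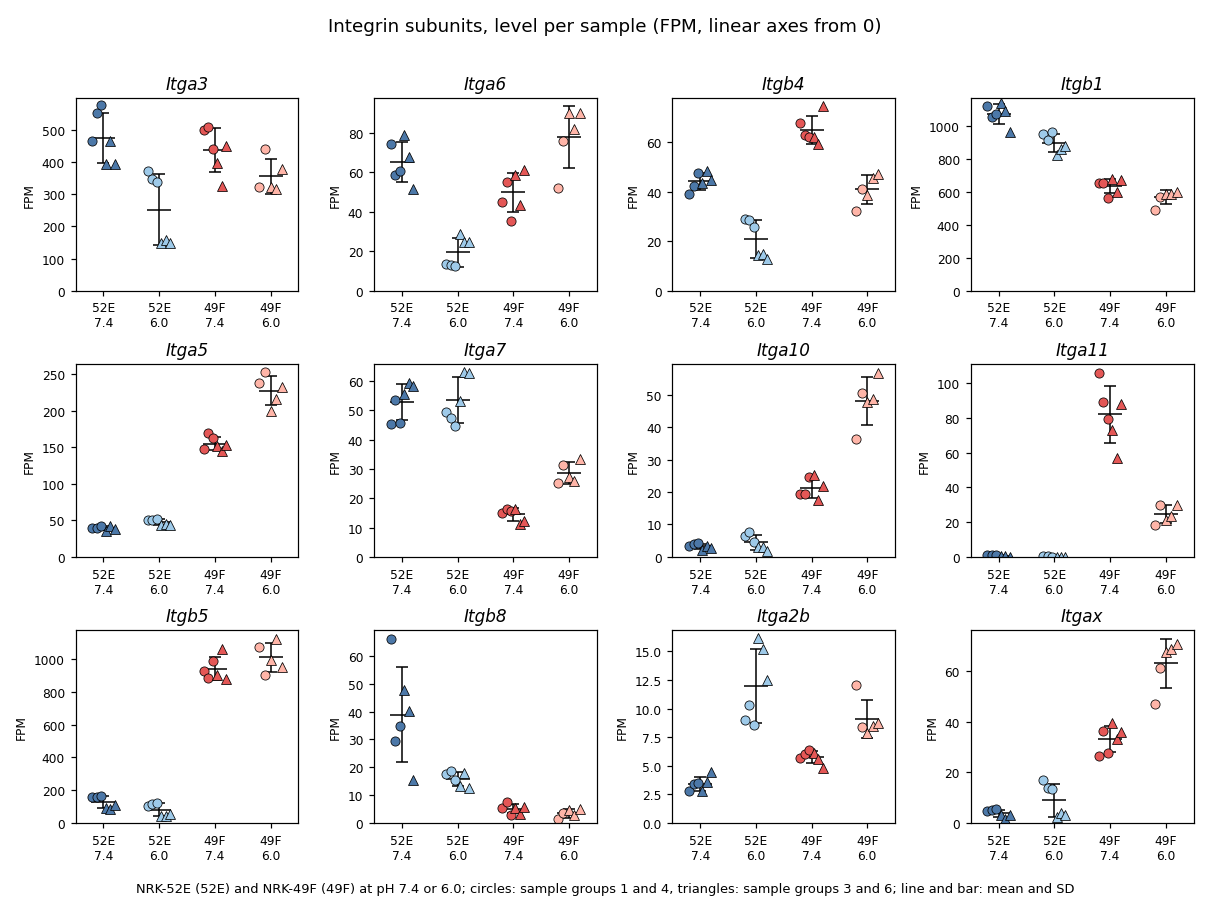
Level in FPM (vertical axis, linear from 0) of 12 integrin subunits in every sample of NRK-52E (blue) and NRK-49F (red) at pH 7.4 and 6.0, with circles for sample groups 1 and 4, triangles for sample groups 3 and 6, and the mean with its SD as line and bar. Itga6 falls in NRK-52E and rises in NRK-49F, Itga10, Itga7 and Itga5 rise in NRK-49F, Itga11 falls there, and in NRK-52E at pH 6.0 the triangles of Itga3, Itgb4, Itgb5 and Itgax lie under the circles.

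Talins and kindlins, which switch integrins on, fell in NRK-49F and only in part in NRK-52E. Tln1, the talin of most tissues, ranged from 357 to 482 FPM (median 447) in NRK-49F at pH 7.4 and had 259, 337, 247, 261 and 314 FPM at pH 6.0, all under the lowest control, with a log2 fold change of -0.63 ± 0.09 (edgeR adjusted p = 1.5e-05). In NRK-52E it had 500 ± 36.3 and 535 ± 39.5 FPM and was not called, and both changes differed by 0.73 ± 0.13 (adjusted p = 7.51e-05). Tln2, its paralog, ranged from 45.1 to 79.1 FPM (median 52.9) at pH 7.4 and from 10.8 to 16.7 FPM (median 12.7) at pH 6.0 in NRK-52E, a change of -2.10 ± 0.18 (adjusted p = 8.68e-10). Tln2 fell less in NRK-49F, from 53.6 ± 8.86 FPM to 20.4, 42.2, 30.9, 26.8 and 47.5 FPM, a change of -0.68 ± 0.18 (adjusted p = 0.0074) that was not called within sample group 6 alone (adjusted p = 0.111), and the difference was -1.42 ± 0.25 (adjusted p = 9.29e-05). Tln2 thus fell further in NRK-52E, and Tln1 fell in NRK-49F. Reads that map to both paralogs were counted for both. Fermt2, the kindlin of fibroblasts and most other cells, fell in both lines, with 212 ± 19.1 and 164 ± 10.2 FPM in NRK-52E (-0.37 ± 0.07) and 108 ± 7.09 and 83.2 ± 8.4 FPM in NRK-49F (-0.38 ± 0.08), and the difference was 0.01 ± 0.11 (adjusted p = 0.948).

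The members of the complex of ILK, PINCH and parvin differed in direction. Ilk, the pseudokinase at its centre, ranged from 176 to 225 FPM (median 193) at pH 7.4 and from 222 to 261 FPM (median 237) at pH 6.0 in NRK-52E, a log2 fold change of 0.29 ± 0.08 (edgeR adjusted p = 0.00226). The NRK-49F controls ranged from 157 to 190 FPM (median 172) and the acid samples had 151, 121, 137, 139 and 113 FPM, a change of -0.38 ± 0.08 (adjusted p = 0.00092), and both changes differed by 0.66 ± 0.11 (adjusted p = 3.94e-05). The rise in NRK-52E was not called within sample group 3 alone, nor the fall in NRK-49F within sample group 4 alone. Taf10, a gene that overlaps Ilk, had means of 57.9 and 65.3 FPM in NRK-52E and 76.5 and 93.1 FPM in NRK-49F. It was called in neither line, and reads of both genes cannot be told apart where they overlap. Lims1, which encodes PINCH, was the adaptor that rose in NRK-49F, from a range of 65.8 to 83.4 FPM (median 80.2) to 107, 111, 112, 107 and 112 FPM (0.53 ± 0.09, adjusted p = 4.71e-05). In NRK-52E Lims1 had 92.5 ± 8.74 and 104.9 ± 11.4 FPM and was not called (adjusted p = 0.0589). The difference of -0.35 between the changes of Lims1 was called (adjusted p = 0.0221), but not with RLE scaling or without the filter (adjusted p up to 0.0535).

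Both parvins, which link ILK to actin, differed in where they were found. Parva ranged from 120 to 146 FPM (median 130) at pH 7.4 and had 74.3, 83.7, 75.4, 78.9 and 82.8 FPM at pH 6.0 in NRK-49F, a log2 fold change of -0.73 ± 0.08 (edgeR adjusted p = 4.73e-07). In NRK-52E it lay between 250 and 257 FPM in all control samples and between 171 and 236 FPM at pH 6.0, a smaller fall of -0.31 ± 0.08 (adjusted p = 0.00158) that was not called within sample group 1 alone, and the difference was 0.42 ± 0.11 (adjusted p = 0.00469). Parvb, found mainly in NRK-49F, had 119 ± 5.22 FPM at pH 7.4 and 115, 127, 122, 125 and 135 FPM at pH 6.0 there and was not called. In NRK-52E it had 1.29 ± 0.705 and 0.380 ± 0.184 FPM, a change of -1.89 ± 0.32 (adjusted p = 1.73e-05). Its NRK-52E level at pH 7.4 was 2.06% of that of NRK-49F in A021 and 0.474 to 1.30% in the other 5, and at most 0.578% at pH 6.0, so that Parvb, like Pdgfra, was lower at pH 6.0, and the part of NRK-49F signal in it was not tested.

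Of the 9 genes of FAK, Src and paxillin signalling, 6 fell and 2 rose in NRK-52E, 88.9% beside 61.2% of all genes, and 4 fell in NRK-49F, 44.4% beside 28.9%. Pxn, the scaffold paxillin, ranged from 171 to 266 FPM (median 212) at pH 7.4 and from 70.6 to 151 FPM (median 107) at pH 6.0 in NRK-52E, a log2 fold change of -0.98 ± 0.18 (edgeR adjusted p = 6.38e-05). In NRK-49F it ranged from 162 to 194 FPM and had 95.9, 158, 134, 147 and 151 FPM at pH 6.0, all under the lowest control, yet was not called in the fit of all samples (-0.38 ± 0.19, adjusted p = 0.137), while it was called when this line was fitted alone and within sample group 4. Bcar1, which encodes p130Cas, fell in both lines, from 188 ± 19.2 to 107 ± 28.9 FPM in NRK-52E (-0.82 ± 0.13, adjusted p = 5.47e-06). In NRK-49F it went from a range of 108 to 132 FPM to 84.1, 97.8, 90.9, 94.1 and 95.9 FPM (-0.39 ± 0.13, adjusted p = 0.0272), a call lost without any of 4 single samples (adjusted p up to 0.0671).

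Among the kinases, Src fell in both lines. It ranged from 101 to 114 FPM (median 109) at pH 7.4 and from 80.5 to 89.2 FPM (median 84.1) at pH 6.0 in NRK-52E, and from 83.2 to 89.3 FPM to 68.4, 68.2, 56.2, 69.7 and 67.2 FPM in NRK-49F. The log2 fold changes of Src were -0.35 ± 0.06 and -0.40 ± 0.06 (edgeR adjusted p = 2.19e-05 and 3.45e-05), with no overlap in either line. Ptk2, which encodes FAK, had 132 ± 4.69 and 117 ± 6.03 FPM in NRK-52E (-0.18 ± 0.06, adjusted p = 0.00823) and 149 ± 5.64 and 138 ± 9.13 FPM in NRK-49F, where it was not called. Ptk2b, the related kinase PYK2, was mainly a gene of NRK-52E, with 156 ± 17 and 98.8 ± 7.9 FPM (-0.66 ± 0.12, adjusted p = 5.16e-05), and fell also at its lower level in NRK-49F, from 11.8 ± 3.13 to 8.16 ± 1.05 FPM (-0.55 ± 0.14, adjusted p = 0.00402), a call lost within sample group 4 alone (adjusted p = 0.283).

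Crkl, an adaptor that binds p130Cas, fell in both lines, with log2 fold changes of -0.24 ± 0.09 and -0.32 ± 0.09 (edgeR adjusted p = 0.0165 and 0.00919), with overlapping samples. Its paralog Crk had means of 22.03 and 26.8 FPM in NRK-52E and 23.9 and 18.7 FPM in NRK-49F and was called in neither. Git1 and Git2, which bind paxillin and switch off Arf GTPases, rose in NRK-52E, Git1 from 167 ± 13.7 to 210 ± 47 FPM (0.32 ± 0.11, adjusted p = 0.0107) and Git2 from 97.5 ± 8.62 to 115 ± 6.02 FPM (0.24 ± 0.07, adjusted p = 0.00383). In NRK-49F they were not called, with changes of 0.03 ± 0.11 and 0.12 ± 0.07, and the differences between the lines were not called.

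Of the proteins that bind actin, Zyx and Tns3 fell in both lines. Zyx encodes zyxin, a protein of stressed actin fibres, and its promoter is printed above. It ranged from 274 to 391 FPM (median 343) at pH 7.4 and from 96.4 to 208 FPM (median 144) at pH 6.0 in NRK-52E, a log2 fold change of -1.19 ± 0.16 (edgeR adjusted p = 1.09e-06). In NRK-49F the range was 331 to 455 FPM (median 352), and the acid samples had 204, 187, 167, 189 and 186 FPM, a change of -0.98 ± 0.17 (adjusted p = 0.000122). No samples overlapped, and the difference between the lines was -0.21 ± 0.23 and not called. Epha1, a gene beside Zyx, also fell, from 1.24 to 0.511 FPM in NRK-52E and from 1.05 to 0.347 FPM in NRK-49F. Tns3, a tensin that binds the beta tail, ranged from 81.8 to 160 FPM (median 130) at pH 7.4 and from 42.6 to 79.8 FPM (median 59.5) at pH 6.0 in NRK-52E (-1.06 ± 0.18, adjusted p = 2.23e-05), and from 156 to 247 FPM (median 203) to 74.9, 125, 100, 98.2 and 125 FPM in NRK-49F (-0.97 ± 0.19, adjusted p = 0.000444). Tns1, the related tensin, varied more between samples, from 24.7 to 98.8 FPM in NRK-52E and from 70.3 to 179 FPM in NRK-49F at pH 7.4, and was called in neither line (adjusted p = 0.135 and 0.0753), but in NRK-49F with DESeq2 and with sample group as a block (adjusted p = 0.0392).

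Vcl, vinculin, which strengthens the bond of talin to actin, changed in opposite directions. It ranged from 380 to 427 FPM (median 400) at pH 7.4 and from 430 to 506 FPM (median 461) at pH 6.0 in NRK-52E, a log2 fold change of 0.22 ± 0.07 (edgeR adjusted p = 0.013) with no overlap. The NRK-49F controls ranged from 314 to 400 FPM (median 370) and the acid samples had 275, 344, 307, 269 and 317 FPM, a change of -0.27 ± 0.08 (adjusted p = 0.00971), with samples that overlapped. The changes differed by 0.49 ± 0.11 (adjusted p = 0.000697), while within single sample groups neither change was called. Actn4, an actin crosslinker, fell in NRK-49F from 461 ± 47.1 to 351 ± 54.6 FPM (-0.39 ± 0.10, adjusted p = 0.00591), though not called within sample group 6 alone (adjusted p = 0.0941), and had 479 ± 57.1 and 458 ± 30 FPM in NRK-52E, where it was not called. Actn1, its paralog, had means of 84.8 and 75.4 FPM in NRK-52E and 216 and 237 FPM in NRK-49F and was called in neither.

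**Figure D3:**
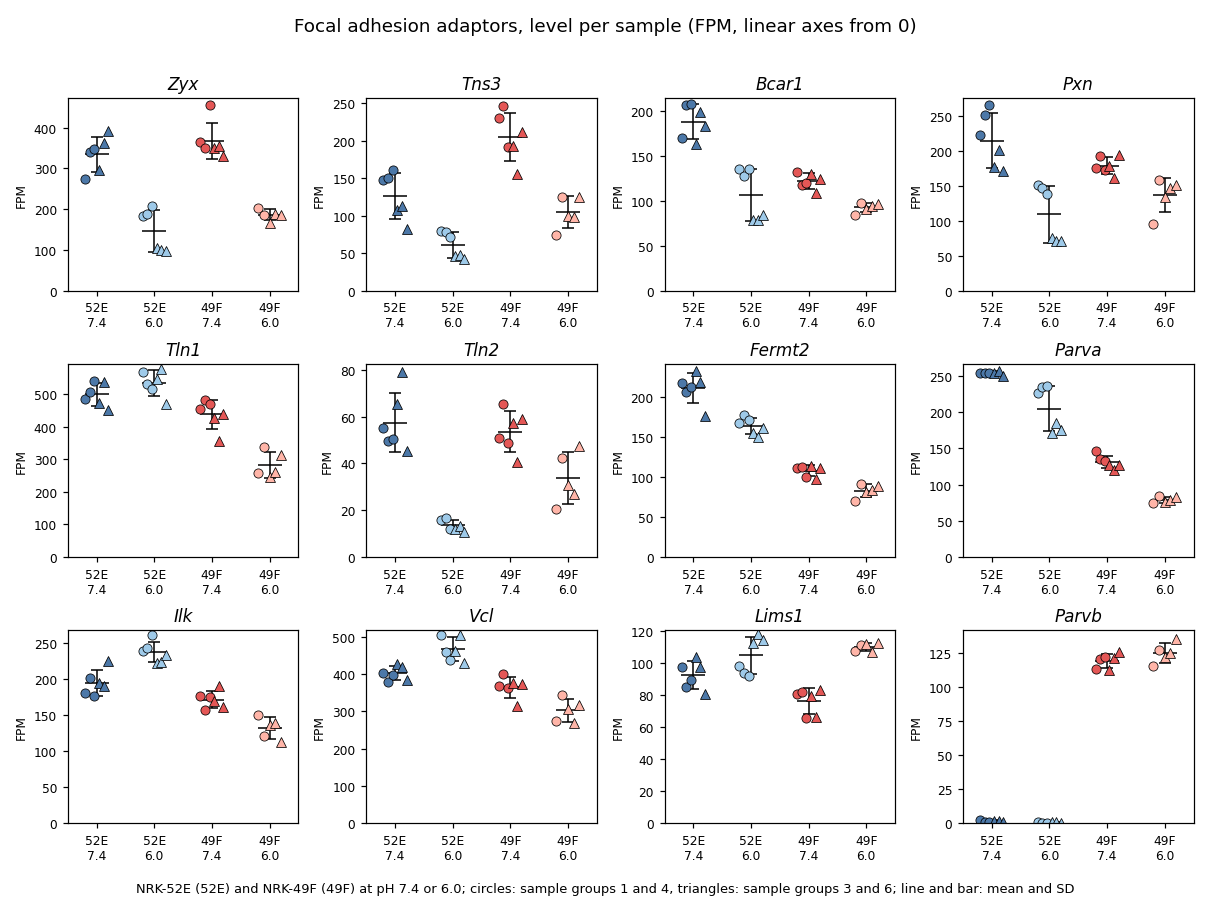
Level in FPM (vertical axis, linear from 0) of 12 adaptors in every sample of NRK-52E (blue) and NRK-49F (red) at pH 7.4 and 6.0, with circles for sample groups 1 and 4, triangles for sample groups 3 and 6, and the mean with its SD as line and bar. Zyx, Tns3, Bcar1, Tln2, Fermt2 and Parva fall in both lines, Ilk and Vcl are higher at pH 6.0 in NRK-52E and lower in NRK-49F, and Parvb is found mainly in NRK-49F.

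The test of the difference between both acid changes called 12 of the 39 members, 30.8%, under the background of 41.4% over all genes. They were Itga6, Itga7, Itga5, Itga2b, Itgae, Tln1, Tln2, Ilk, Lims1, Parva, Parvb and Vcl. The 4 members of the complex of ILK, PINCH and parvin were among them, but Lims1, like Itga5, was not with RLE scaling or without the filter. For Parvb, the NRK-52E means behind this call were 1.29 and 0.380 FPM, and the part of NRK-49F signal in them was not tested. None of the 9 genes of FAK, Src and paxillin signalling was called here, while Crk was with DESeq2 and RLE scaling. With sample group as a block, Itga10, Itga3, Itgb5, Pxn, Bcar1 and Actn4 were called as well, 18 members in all. Genes called in 1 line alone without such a difference in either fit, among them Itgb1 and Itgb8, were not shown to differ between the lines.

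At pH 7.4, 26 of the 39 members differed between the lines, 15 higher and 11 lower in NRK-49F, or 66.7%, beside a background of 68.8%, of which 33.9% were higher and 35% lower. Among the tested members above the level of 3 counts in both lines, the largest differences were those of Itga11 (6.64 ± 0.29 on the log2 scale, higher in NRK-49F) and Parvb (6.46 ± 0.23). Higher in NRK-49F were also Itgax (3.09 ± 0.38), Itgb5 (2.89 ± 0.24), Itga10 (2.69 ± 0.24), Itga5 (1.97 ± 0.07) and Actn1 (1.35 ± 0.10). Higher in NRK-52E were Ptk2b (-3.71 ± 0.14), Itgb8 (-2.93 ± 0.30), Itga7 (-1.87 ± 0.12), Fermt2 (-0.97 ± 0.08), Parva (-0.95 ± 0.08) and Itgb1 (-0.75 ± 0.07). These are differences between 2 lines, with 1 line of each cell type.

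Within NRK-52E, sample groups 1 and 3 had different acid changes for 9 of the 39 members, 23.1%, where 10.6% of all genes differed. Zyx fell from 320 to 194 FPM in sample group 1 and from 350 to 100.3 FPM in sample group 3, log2 fold changes of -0.72 ± 0.11 and -1.80 ± 0.12, which differed by 1.08 ± 0.16 (edgeR adjusted p = 0.000244). Itgb4 fell by 0.63 in sample group 1 and by 1.71 in sample group 3 on the log2 scale (difference 1.07 ± 0.16, adjusted p = 0.000283), and Itga3 by 0.59 and 1.46 (0.87 ± 0.18, adjusted p = 0.00436). The changes of Bcar1, Pxn and Parva were likewise more negative in sample group 3, by 0.62, 0.58 and 0.39 on the log2 scale, with Parva not called within sample group 1 (-0.13 ± 0.07), while the fall of Itga6 was larger in sample group 1 (-0.97 ± 0.25, adjusted p = 0.016). Itgax rose in sample group 1 alone, from 5.10 to 14.8 FPM against 2.63 and 3.07 FPM in sample group 3 (1.32 ± 0.28, adjusted p = 0.0045), and so did Git1, from 172 to 252 FPM against 163 and 167 FPM (0.51 ± 0.11, adjusted p = 0.00681). In NRK-49F, no member differed between sample groups 4 and 6, as no gene did (0% of 14777 by edgeR), and at an unadjusted p under 0.05 there were 0 members and 596 genes in all.

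**Figure D4:**
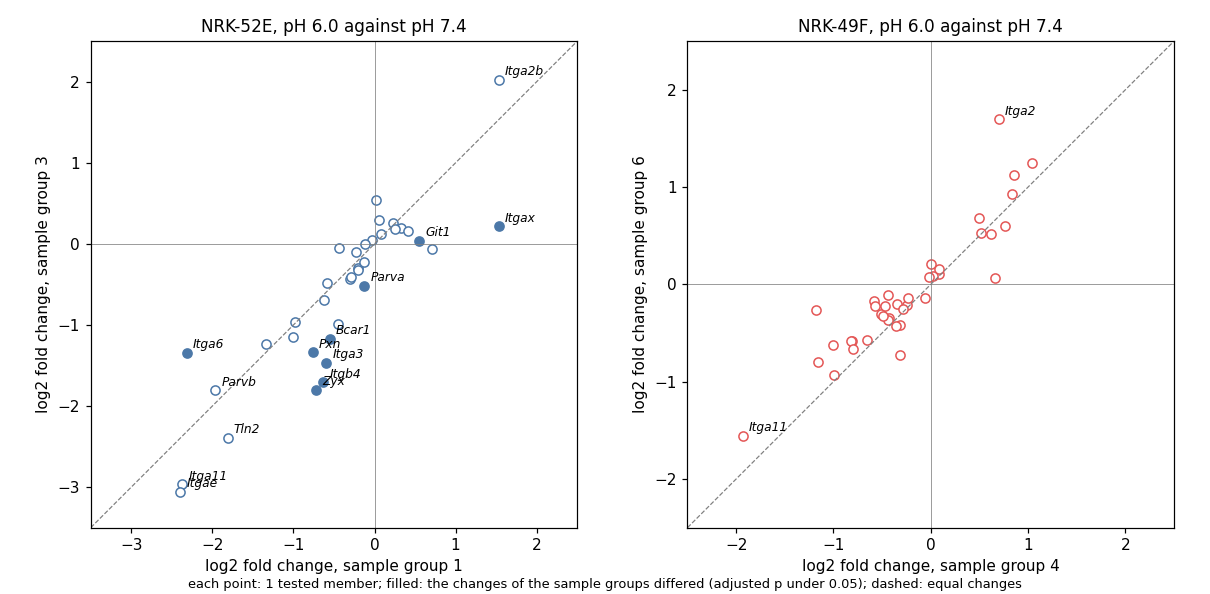
Log2 fold change from pH 7.4 to pH 6.0 of each tested member in both sample groups of NRK-52E (left, sample group 1 on the horizontal and 3 on the vertical axis) and of NRK-49F (right, sample groups 4 and 6), with filled points where the changes differed and a dashed line of equal changes. On the left, 9 points are filled and Zyx, Itgb4, Itga3, Bcar1, Pxn and Parva lie under the line, and on the right none is filled.

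Further genes of adhesion, which are not members, were counted from a list of 48, of which 46 were tested. In NRK-52E 10 were higher and 22 lower, 69.6% beside 61.2% of all genes, with a median log2 fold change of -0.25 against -0.12 for all genes. In NRK-49F 1 was higher and 17 lower, 39.1% beside 28.9%, with a median of -0.24 against 0.00. Cd9, a tetraspanin that binds beta chains, rose most in NRK-52E, from 0.59 to 5.07 FPM (3.03 ± 0.23). Fyn, a kinase, had the largest fitted fall there at means of 0.1 and 0.0137 FPM, under the level of 3 counts, and the next was that of Cav1, caveolin, from 855 to 341 FPM (-1.32 ± 0.13). In NRK-49F, Itgb1bp1, which binds the tail of Itgb1 in place of talin, was the gene that rose (0.64 ± 0.10), and Ajuba, a LIM protein like zyxin, fell most, from 104.99 to 28.3 FPM (-1.89 ± 0.08).

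Of 31 integrin ligands, 27 were tested. In NRK-52E 3 were higher and 18 lower, 77.8% beside 61.2% of all genes, with a median log2 fold change of -1.36 against -0.12. In NRK-49F 5 were higher and 5 lower, 37% beside 28.9%, with a median of 0.07 against 0.00. Lama3, a chain of laminin and ligand of Itga3 and Itga6, had the largest rise in NRK-52E, from 5.78 to 9.89 FPM (0.74 ± 0.28). In sample group 3 it ranged from 2.26 to 3.09 FPM at pH 7.4 and from 7.44 to 10.05 FPM at pH 6.0. In sample group 1 the samples overlapped, with 8.12 to 9.84 FPM at pH 7.4 and 8.29 to 13.9 FPM at pH 6.0. Lama3 rose also in NRK-49F, from 51.7 to 104.7 FPM (1.02 ± 0.27). The largest fitted falls in NRK-52E were those of Lama4, another laminin chain, from 0.195 to 0 FPM, and of Vcam1, from 1.20 to 0.0234 FPM. Both were under the level of 3 counts at pH 6.0, and Vcam1 stood at 1.47% of its NRK-49F level in A021. Col1a2 in NRK-52E ranged from 0.415 to 52.8 FPM at pH 7.4 and from 0.0546 to 0.669 FPM at pH 6.0. Its highest controls were A021, A022 and A033, and the part of NRK-49F signal in it was not tested. In NRK-49F, Spp1, osteopontin, rose most, from 1870 to 6939 FPM (1.89 ± 0.48), and Npnt, nephronectin, fell most, from 6.59 to 0.857 FPM (-2.89 ± 0.79), where a single control sample at 29.7 FPM lay far over the median of 2.45 FPM.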

How the data were processed

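Poly(A) RNA of NRK-52E and NRK-49F cells was sequenced in read pairs. The authors deposited raw counts per Ensembl gene, made with HISAT2 2.1.0 and featureCounts on exons with multi-mapping reads included; the paper names the rat build rn7 and the submitters' processing notes rn6, and the strand setting is not given in the sources used here. Of the columns, 23 were matched to a label and 13 were not used. The members and lists were chosen with earlier results of these data known.

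Counts of all 23 samples were fitted in 1 model with 4 conditions (8 with sample group) by edgeR 4.0.16 (R 4.3.3), with filterByExpr (minimum count 10, minimum total 15), TMM scaling, the quasi-likelihood test and Benjamini-Hochberg adjustment over 14777 genes, at a threshold of 0.05. The standard error was the absolute log2 fold change divided by the square root of F. DESeq2 1.42.0, other scalings and filters, each line alone, each sample group, sample group as a block and each replicate left out were alternatives. A level of 3 counts per library, averaged over the condition, was the floor for bounds, which cover counting error only. Every member is named. Of the lists of adhesion genes and ligands, the called genes with the largest rise and fall in each line are named (mean over all samples 5 FPM or more), and the next where the level lay under the floor. Neighbouring genes were added after the data were seen. Between samples of 1 condition, Pearson's r of log2(FPM + 1) was 0.975 to 0.997 over 55 pairs. The steps were tested on simulated data. Python 3.11.15 with matplotlib 3.10.9 served for plots.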

Additional observations from a re-analysis of the deposited data

Results flagged for a closer look

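In 8 of 156 groups of samples, the highest or lowest value of a member lay far from the others by Dixon's test at 95%, where chance gives about 1 in 20, or 7.8. In NRK-52E at pH 7.4 these were Itga1 in A021, at 22.9 FPM, and Git2 in A035, at 80.0 FPM. In NRK-49F at pH 7.4 they were Git2 in A052, at 71.0 FPM, and Zyx in A041, at 455 FPM. In NRK-49F at pH 6.0 they were Src in A054, at 56.2 FPM, and 3 values of A042, Itga2b at 12.02 FPM, Itgb1 at 492 FPM and Ptk2 at 153 FPM.

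The acid change in NRK-52E minus that in NRK-49F passed the test of the difference for 12 members. On the log2 scale it was -3.02 for Itgae, -2.39 for Itga6, -1.95 for Parvb, -1.42 for Tln2, -0.97 for Itga7, -0.35 for Lims1 and -0.29 for Itga5. It was 1.15 for Itga2b, 0.73 for Tln1, 0.66 for Ilk, 0.49 for Vcl and 0.42 for Parva.

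The acid change in sample group 1 minus that in sample group 3 of NRK-52E passed the test for 9 members. It was 1.32 for Itgax, 1.08 for Zyx, 1.07 for Itgb4, 0.87 for Itga3, 0.62 for Bcar1, 0.58 for Pxn, 0.51 for Git1, 0.39 for Parva and -0.97 for Itga6 on the log2 scale.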

How the results depend on the processing

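No member changed its direction past the threshold under any alternative run. The members called numbered 29 in NRK-52E (28 to 32 with a replicate left out, 23 to 31 under the other alternatives), 23 in NRK-49F (19 to 23 and 19 to 26), 12 for the difference between the lines (11 to 16 and 11 to 18, the most with sample group as a block), 26 between the lines at pH 7.4 (24 to 26 and 24 to 32, the most without a filter, where more members are tested), and 9 between sample groups 1 and 3 (7 to 9 and 9 to 10). Between sample groups 4 and 6 it was 0 throughout. The lowest count in NRK-52E, 23, was that within sample group 3, with fewer samples, and the lowest in NRK-49F, 19, was that within either sample group and also that without A054, where the members higher at pH 6.0 numbered 5 and not 8. In NRK-52E alone the calls of Itgb1, Itgb5, Ptk2 and Crkl were lost, and Itgb5 was lost without any of 4 single samples (adjusted p up to 0.0533). In NRK-49F, Itga6 was lost without A054 (adjusted p = 0.0509), and Itgax with RLE scaling and without a filter. The cause was not tested. With FPM from the raw library size, the mean levels were 0.884 to 1.11 times those given. Levels per gene length were not compared, and the sample group as a block could not be fitted between the lines, since no sample group holds both. No paired analysis was possible because every sample has a replicate code of its own.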
